A study of Homo sapiens with 24 samples.

Results

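Transcripts of 10 genes of the nuclear lamina and of the high mobility group (HMG) were examined, 5 lamins and lamina partners (LMNA, LMNB1, LMNB2, LBR and TMPO) and 5 HMG genes (HMGB1, HMGB2, HMGB3, HMGA1 and HMGA2), out of 59609 genes in the count table. They are genes used as marks of senescence. The rule that lists them uses no measured value, but they were chosen with earlier results of these data known. The data were 24 libraries of 3′ RNA sequencing, in which reads come from the 3′ ends of polyadenylated transcripts, from 2 ER-negative breast cancer cell lines labelled as wild-type in genotype, MDA-MB-231 and MDA-MB-453. The 8 groups, of 3 biological replicates each, were the DMSO control, 500 nM abemaciclib, 5 nM fulvestrant and the combination of these doses in each line, all after 5 days. Abemaciclib inhibits the cell-cycle kinases CDK4 and CDK6, and fulvestrant binds the oestrogen receptor (ER) and causes its degradation. Each line is a single established line given a single dose of each drug, all samples came from 1 experiment, and the lines were grown in different media (RPMI-1640 for MDA-MB-231 and DMEM for MDA-MB-453), so that line and medium cannot be told apart.

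Lamins are the intermediate filament proteins of the meshwork beneath the inner nuclear membrane. LMNA encodes the A-type lamins A and C, LMNB1 and LMNB2 encode the B-type lamins, LBR encodes the lamin B receptor, an inner-membrane protein that holds heterochromatin at the periphery and has sterol reductase activity, and TMPO encodes the LAP2 proteins, which bind lamins and chromatin. HMGB1, HMGB2 and HMGB3 encode abundant chromatin proteins that bend DNA, and HMGA1 and HMGA2 encode AT-hook proteins that bind the minor groove of AT-rich DNA. Loss of lamin B1, release of HMGB1 from the nucleus and loss of HMGB2 are established marks of senescent cells, and HMGA proteins are components of senescence-associated heterochromatin foci. Transcript counts carry no information on the location of these proteins in the cell.

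The libraries held between 2873558 and 4158762 counts. Markers of the labelled lines were as follows: VIM, CD44 and AXL were without a count throughout MDA-MB-453 and had means of 1505, 253 and 582 CPM (counts normalised to library size) in MDA-MB-231 with DMSO, SPDEF, a luminal marker, averaged 201 CPM in the DMSO libraries of MDA-MB-453 but 0.192 CPM in those of MDA-MB-231, and the mesenchymal marker SNAI2 was low in MDA-MB-231 as well, at 1.67 CPM. ESR1, which encodes ER, had 0 counts in 21 of 24 libraries. In 3 groups 1 library stood apart, with a chi-square per degree of freedom against the other 2 of 7.31 to 8.65 where those differed from each other by 2.96 to 3.76. These were replicate 1 of MDA-MB-231 with fulvestrant, replicate 1 of MDA-MB-453 with abemaciclib and replicate 3 of MDA-MB-453 with fulvestrant. The share of counts from mitochondrially encoded genes was 8.69% to 9.08% with DMSO and 11.1% to 13.2% with abemaciclib in MDA-MB-231, and 14.8% to 16.0% and 21.8% to 25.5% in MDA-MB-453. With these genes removed, each of the 10 genes kept its call in each comparison.

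The genes lie on 8 chromosomes (GENCODE annotation, build GRCh38): LMNA at chr1:156082573-156140081 and LBR at chr1:225401502-225428925, LMNB1 at chr5:126776623-126837020, LMNB2 at chr19:2427638-2456959, TMPO at chr12:98515579-98550351, HMGB1 at chr13:30456704-30617597, HMGB2 at chr4:173331376-173334432, HMGB3 at chrX:150980509-150990771, HMGA1 at chr6:34236873-34246231 and HMGA2 at chr12:65824460-65966291. Exons of TMPO share 646 bases with the antisense gene TMPO-AS1, exons of HMGA2 share 384 bases with HMGA2-AS1, and exons of LMNB2 share 46 bases with MIR7108 on the same strand. Whether counting used the strand was not stated in the sources used here, so reads in these stretches cannot be assigned with certainty. Genes named as pseudogene copies held counts too: 48 copies of HMGB1 held 3.67% of the counts of the gene and its copies together, and 29 copies of HMGB3 held 1.84%.

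Promoter windows from RefSeq (250 bases before to 50 after an annotated start, build GRCh38.p14) were given for 8 of the 10 genes, 16 windows in all. Windows for HMGB2 and HMGA2 were not used here. They were searched on both strands for CCAAT, for the cell-cycle homology element TTTGAA and for 4 forms of an E2F core, the form TTCGCGC, the form TTGGCGC, the form TTCCCGC and lastly the form TTGCCGC, with no overlap between the matches found. CCAAT was present in 9 of the 16 windows, where 34.6% of all 35116 promoter windows held it, TTTGAA in 3 windows (15.2% of all windows) and an E2F core in 1 window, of LMNA (13% of all windows). The windows with CCAAT belonged to 6 of the 8 genes. Windows of the same gene can overlap and hold the same matches, as those of TMPO did, so they are not separate promoters. The 250 bases before the start are printed for the 3 genes with more than 1 CCAAT in a window, all of which fell with abemaciclib in both lines, with the matches in capitals.

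TMPO (plus strand, chr12:98515323-98515572, over an exon of TMPO-AS1): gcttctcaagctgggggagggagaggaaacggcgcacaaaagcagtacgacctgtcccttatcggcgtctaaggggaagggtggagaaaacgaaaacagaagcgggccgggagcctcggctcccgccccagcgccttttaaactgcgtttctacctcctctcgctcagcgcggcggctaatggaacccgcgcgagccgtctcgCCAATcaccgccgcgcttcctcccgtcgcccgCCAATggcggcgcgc
HMGB1 (minus strand, chr13:30465937-30466186): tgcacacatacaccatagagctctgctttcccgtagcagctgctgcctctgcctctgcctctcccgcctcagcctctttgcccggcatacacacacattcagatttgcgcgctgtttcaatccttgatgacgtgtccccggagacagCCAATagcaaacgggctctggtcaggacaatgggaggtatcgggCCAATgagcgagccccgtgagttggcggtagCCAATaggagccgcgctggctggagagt
HMGB3 (plus strand, chrX:150983085-150983334): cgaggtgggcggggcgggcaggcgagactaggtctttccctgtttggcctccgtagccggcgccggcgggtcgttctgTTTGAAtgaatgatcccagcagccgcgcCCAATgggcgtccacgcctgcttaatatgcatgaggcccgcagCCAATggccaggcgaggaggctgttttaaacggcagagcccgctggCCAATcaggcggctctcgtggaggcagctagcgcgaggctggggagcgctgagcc

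In TMPO the 2 matches to CCAAT began 47 and 15 bases before the start. In HMGB1 the 3 matches began 103, 59 and 28 bases before it, and in HMGB3 they began 144, 101 and 55 bases before it, with TTTGAA at 172 bases. A match of letters is a description of the window and not evidence of a bound site. LMNB1 had no match in its window upstream of the gene's 5′ end and a CCAAT 138 bases before the start of its other window. LMNA, which was not called lower in either line, had a CCAAT 146 bases and an E2F core 22 bases before its start.

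**Figure D1:**
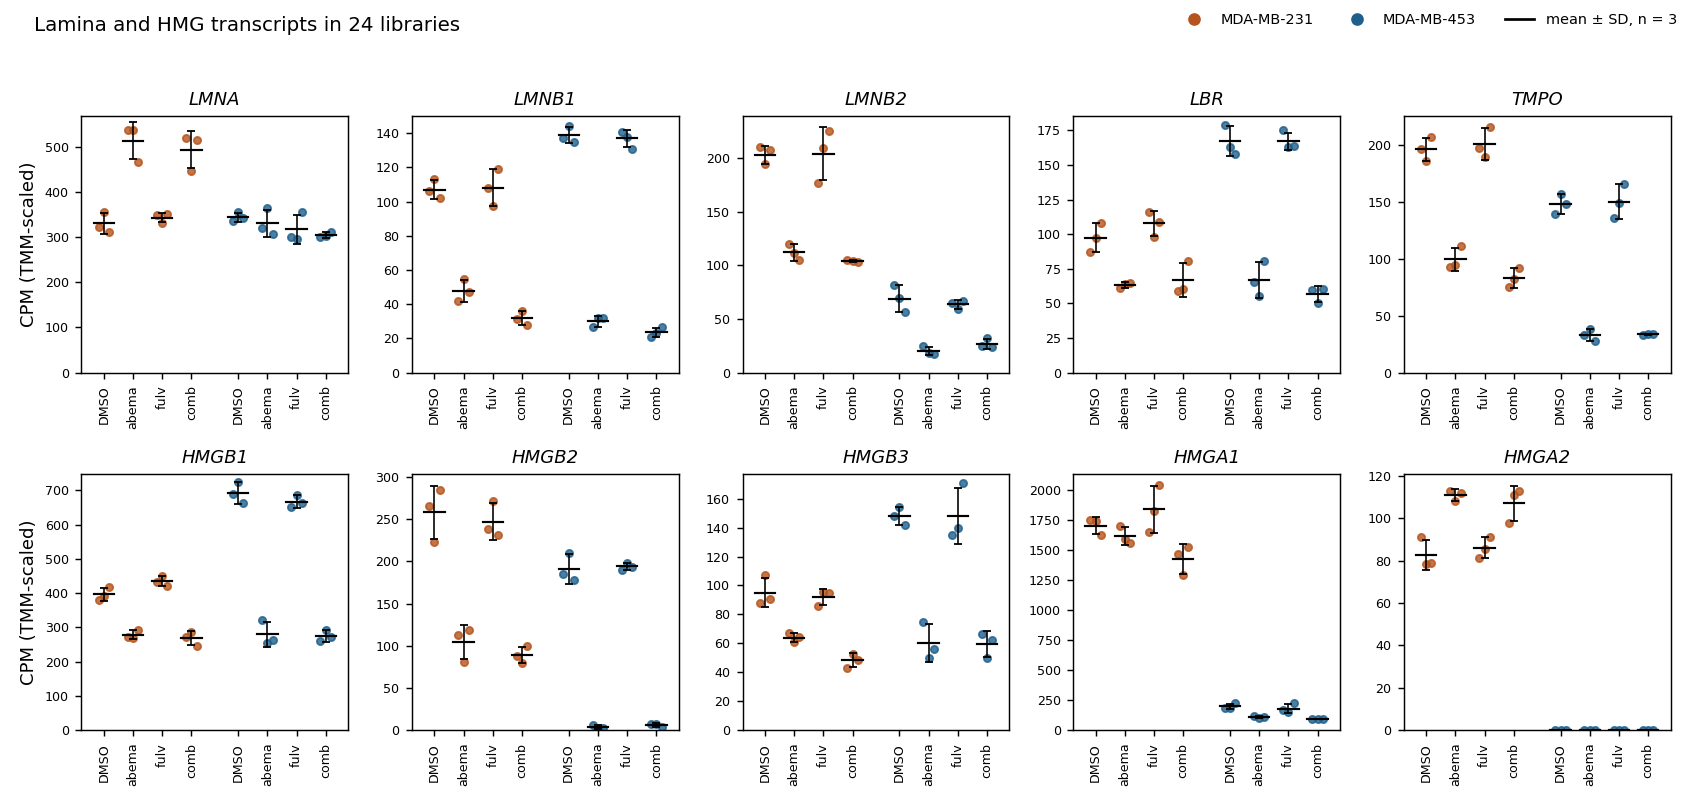
Level of each transcript (TMM-scaled CPM, vertical axis from 0, with its own scale in each panel) in the 3 libraries of each of the 8 groups (points), with the mean and SD (black). LMNB1, LMNB2, LBR, TMPO, HMGB1, HMGB2 and HMGB3 sit lower in both abemaciclib-containing groups of both lines, LMNA and HMGA2 sit higher in those of MDA-MB-231, and HMGA2 is at 0 throughout MDA-MB-453.

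The first question was how these transcripts differed after abemaciclib alone. In MDA-MB-231, 7 of the 10 fell (LMNB1, LMNB2, LBR, TMPO, HMGB1, HMGB2 and HMGB3), LMNA and HMGA2 rose, and HMGA1 was not called. In MDA-MB-453, all but LMNA of the 9 genes tested fell, and HMGA2 had no counts. Over all genes, 33.7% of 11314 tested were called in MDA-MB-231 and 36.0% of 11080 in MDA-MB-453 (edgeR quasi-likelihood test, 2-sided, Benjamini-Hochberg adjusted over all genes tested, called below 0.05), against 9 of 10 and 8 of 9 here. The median log2 fold change was −0.594 over the 10 genes in MDA-MB-231 and −1.323 over the 9 in MDA-MB-453, where it was −0.001 and −0.002 over all genes. Because these are bulk samples, fewer cells with a transcript and less of it per cell cannot be told apart. Without replicate 1 of the MDA-MB-453 abemaciclib group the count was again 8.

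The B-type lamins fell in both lines. LMNB1 was at 106, 113 and 102 CPM in the 3 DMSO libraries of MDA-MB-231 and at 41.8, 54.6 and 47.1 CPM with abemaciclib. The MDA-MB-453 libraries held 137, 144 and 135 CPM with DMSO and 26.4, 32.1 and 31.7 CPM with abemaciclib. The groups did not overlap in either line, and the level with abemaciclib was 2.23-fold lower in MDA-MB-231 (log2 fold change −1.16 ± 0.137 SE, adjusted p = 5.3e-09) and 4.63-fold lower in MDA-MB-453 (−2.21 ± 0.132, adjusted p = 1.1e-18). LMNB2 was at 209.8, 194 and 207 CPM with DMSO and 120.1, 111 and 105 CPM with abemaciclib in MDA-MB-231. It was at 81.4, 69.1 and 56.0 CPM with DMSO and 24.3, 18.0 and 17.7 CPM with abemaciclib in MDA-MB-453. Here too every treated library was below every control library, by 1.81-fold in MDA-MB-231 (−0.86 ± 0.108, adjusted p = 2.6e-08) and 3.43-fold in MDA-MB-453 (−1.78 ± 0.177, adjusted p = 1.6e-11).

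LMNA, the A-type lamin gene, went the other way in MDA-MB-231. Its libraries were at 324, 357 and 312 CPM with DMSO and at 539, 538 and 467 CPM with abemaciclib, with no overlap, a rise of 1.56-fold (log2 fold change 0.64 ± 0.0922 SE, adjusted p = 4.4e-07). Its MDA-MB-453 libraries were at 336, 356 and 344 CPM with DMSO and at 319.9, 365 and 308 CPM with abemaciclib. These groups overlapped and the difference was not called (−0.07, 95% interval −0.24 to 0.11, adjusted p = 0.596).

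Both lamina partners fell in both lines. LBR, the lamin B receptor gene, ranged from 87.2 to 108 CPM with DMSO and was at 61.0, 64.1 and 64.7 CPM with abemaciclib in MDA-MB-231 (−0.62 ± 0.134, adjusted p = 2.9e-04). Its MDA-MB-453 values were 179, 163 and 158 CPM with DMSO and 65.1, 55.0 and 80.8 CPM with abemaciclib (−1.32 ± 0.120, adjusted p = 1.5e-12). In each line the highest treated library was below the lowest control library. TMPO, which encodes the LAP2 proteins, was at 196, 186 and 207 CPM with DMSO and 93.1, 94.1 and 111 CPM with abemaciclib in MDA-MB-231, 1.97-fold lower (−0.97 ± 0.112, adjusted p = 2.9e-09). The MDA-MB-453 levels of TMPO were 139.6, 157 and 148 CPM with DMSO and 33.1, 38.2 and 28.1 CPM with abemaciclib, 4.48-fold lower (−2.16 ± 0.130, adjusted p = 1.5e-18). Of the lamina genes, LMNB1 and then TMPO had the lowest log2 fold changes in both lines.

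Of the 3 HMGB genes, HMGB2 differed most. It was at 266, 223 and 285 CPM in the DMSO libraries of MDA-MB-231 and at 113, 81.3 and 119 CPM with abemaciclib, 2.47-fold lower (log2 fold change −1.30 ± 0.121 SE, adjusted p = 1.7e-11). In MDA-MB-453 it was at 185, 210.4 and 178 CPM with DMSO and at 5.87, 2.40 and 3.01 CPM with abemaciclib. The treated MDA-MB-453 libraries held 22, 8 and 9 HMGB2 counts, where the DMSO libraries held 625, 758 and 615, a 49.2-fold lower level (−5.62, 95% interval −6.15 to −5.10, adjusted p = 1.2e-27). HMGB1, whose protein also acts outside the cell as an alarm signal, was at 381, 391 and 418 CPM with DMSO and 271, 270.4 and 293 CPM with abemaciclib in MDA-MB-231, 1.42-fold lower (−0.51 ± 0.0914, adjusted p = 2.1e-05). The other line had 689, 725 and 662 CPM with DMSO and 321, 254 and 264 CPM with abemaciclib, 2.48-fold lower (−1.31 ± 0.0856, adjusted p = 4.4e-17). No HMGB1 library of a treated group reached a control library of its line. HMGB3 was at 88.1, 107 and 90.4 CPM with DMSO and 67.2, 60.6 and 64.2 CPM with abemaciclib in MDA-MB-231 (−0.57 ± 0.130, adjusted p = 6.0e-04). Levels in MDA-MB-453 were 148, 154 and 142 CPM with DMSO and 75.0, 49.6 and 55.8 CPM with abemaciclib (−1.30 ± 0.131, adjusted p = 2.8e-11), again with no overlap.

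The HMGA genes were not called alike in the lines. HMGA1 was at 1748, 1739 and 1621 CPM with DMSO and 1701, 1589 and 1558 CPM with abemaciclib in MDA-MB-231, overlapping groups whose difference was not called (−0.07, 95% interval −0.24 to 0.09, adjusted p = 0.539). In MDA-MB-453, where its level was lower from the start, it was at 186, 180.2 and 223 CPM with DMSO and 119.6, 98.2 and 109.9 CPM with abemaciclib, 1.80-fold lower (−0.85 ± 0.117, adjusted p = 8.6e-08). HMGA2, a gene mostly silent in adult tissue, was at 91.1, 78.6 and 78.9 CPM with DMSO and 113, 108 and 112 CPM with abemaciclib in MDA-MB-231, a rise of 1.34-fold without overlap (0.42 ± 0.119, adjusted p = 0.00470). All 12 MDA-MB-453 libraries held 0 counts of HMGA2, which allows a level of up to 0.270 to 0.298 CPM per group (3 counts over the 3 libraries, counting error only).

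**Figure D2:**
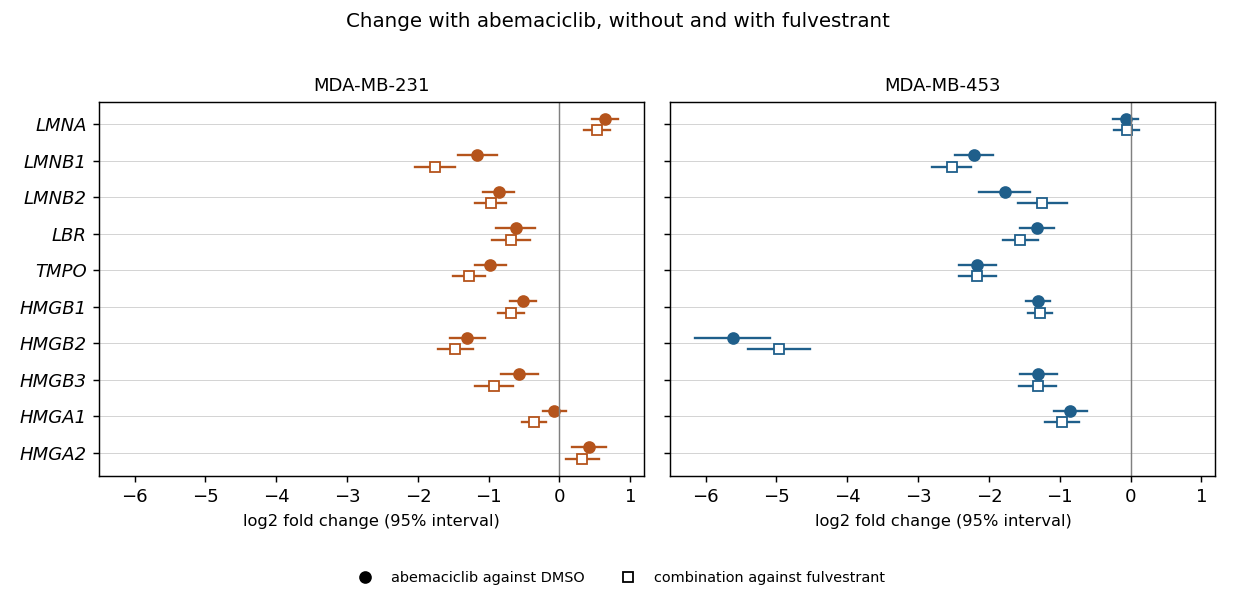
Log2 fold change of each transcript with its 95% interval (horizontal axis) for abemaciclib against DMSO (filled circles) and for the combination against fulvestrant (open squares), in MDA-MB-231 (left) and MDA-MB-453 (right). HMGB2 in MDA-MB-453 lies at −5.62 and −4.97, and LMNA lies above 0 in MDA-MB-231 and across 0 in MDA-MB-453, where HMGA2 has no value.

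The abemaciclib difference was then measured again in cells that also received fulvestrant, a comparison that shares no library with the first. All 10 genes were called in MDA-MB-231 (background 36.1%), with LMNA and HMGA2 higher and the other 8 lower, and 8 of 9 were called lower in MDA-MB-453 (background 36.6%), LMNA again excepted. In MDA-MB-231 the count was 9 without replicate 1 of fulvestrant, HMGA2 being lost, and in MDA-MB-453 it was 8 without replicate 3 of fulvestrant. LMNB1 was at 108, 97.7 and 119 CPM with fulvestrant and 31.5, 36.1 and 28.0 CPM with the combination in MDA-MB-231, 3.38-fold lower (log2 fold change −1.76 ± 0.141 SE, adjusted p = 1.5e-13). In the other line it was at 141, 138 and 131 CPM with fulvestrant and 21.0, 23.1 and 26.4 CPM with the combination, 5.77-fold lower (−2.53 ± 0.137, adjusted p = 2.0e-20). HMGB2 held 848, 976 and 797 counts with fulvestrant and 333, 345 and 394 counts with the combination in MDA-MB-231 (−1.47 ± 0.122, adjusted p = 4.7e-13). The combination libraries of MDA-MB-453 held 22, 26 and 14 HMGB2 counts, or 7.70, 7.60 and 3.62 CPM, against 189.6, 198 and 193 CPM with fulvestrant, 31.3-fold lower (−4.97 ± 0.218, adjusted p = 7.9e-27). For both genes the groups stayed apart in both lines.

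LMNA was at 349, 331 and 351 CPM with fulvestrant and 521, 447 and 517 CPM with the combination in MDA-MB-231, a rise of 1.44-fold (0.53 ± 0.0919, adjusted p = 1.1e-05). The MDA-MB-453 values were 301, 297 and 356 CPM with fulvestrant and 300.2, 303 and 313 CPM with the combination, with overlap (−0.06, 95% interval −0.23 to 0.12, adjusted p = 0.665). HMGA1, not called with abemaciclib alone in MDA-MB-231, was at 1646, 1825 and 2038 CPM with fulvestrant and 1464, 1289 and 1525 CPM with the combination, 1.28-fold lower (−0.36 ± 0.0818, adjusted p = 4.9e-04). The rise of HMGA2 in that line was smaller in size, from 81.4, 85.7 and 91.1 to 97.8, 111 and 113 CPM (0.32 ± 0.118, adjusted p = 0.0282), and was lost in 4 of 19 alternatives, without replicate 1 or 2 of fulvestrant or replicate 2 or 3 of the combination (adjusted p up to 0.108). The remaining 5 genes fell in both lines. LMNB2 fell by 0.97 and 1.25 on the log2 scale in MDA-MB-231 and MDA-MB-453, LBR fell by 0.69 and 1.56, TMPO fell by 1.27 and 2.16, HMGB1 fell by 0.69 and 1.28 and HMGB3 fell by 0.93 and 1.31.

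Set against DMSO in place of fulvestrant, the combination gave 10 of 10 called in MDA-MB-231 (background 35.4%) and 8 of 9 in MDA-MB-453 (background 37.6%), in the same directions. This comparison shares its libraries with the others and adds no separate measurement. Its weakest calls were in MDA-MB-231, HMGA1 at −0.25 (adjusted p = 0.0137), and HMGA2 at 0.38 (adjusted p = 0.0108). HMGA1 was lost in 3 of 19 alternatives, without replicate 1 or 2 of DMSO or replicate 2 of the combination (adjusted p up to 0.122). HMGA2 was lost in 2 of 19, without replicate 2 of DMSO or replicate 3 of the combination (adjusted p up to 0.0566).

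**Figure D3:**
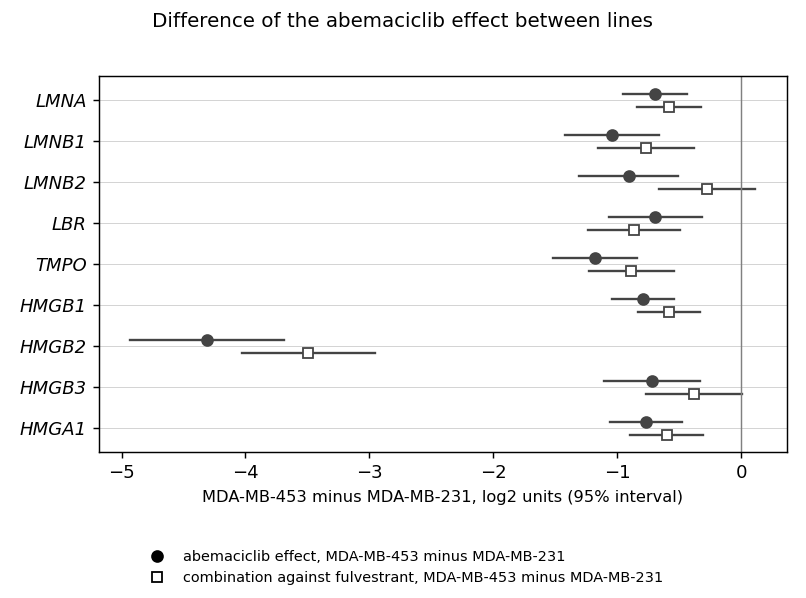
Difference between the lines in the log2 fold change of each of 9 transcripts (MDA-MB-453 minus MDA-MB-231, horizontal axis, with 95% interval), for abemaciclib against DMSO (filled circles) and the combination against fulvestrant (open squares). All points lie below 0, HMGB2 at −4.31 and −3.49 is farthest from it, and the intervals of LMNB2 and HMGB3 for the combination reach 0.

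Whether the abemaciclib difference itself differed between the lines was tested in a fit over all 24 libraries. For abemaciclib against DMSO all 9 genes with counts in both lines were called with a lower log2 fold change in MDA-MB-453 (background 20.7% of 12750 genes). HMGB2 had the largest difference, −4.31 (95% interval −4.93 to −3.69, adjusted p = 2.6e-18). TMPO differed by −1.18 (adjusted p = 4.4e-07) and LMNB1 by −1.04 (adjusted p = 3.2e-05). The other 6 differences lay between −0.91 for LMNB2 and −0.69 for LBR. For LMNA the value of −0.70 (adjusted p = 4.4e-05) set a rise in MDA-MB-231 beside no call in MDA-MB-453, and for HMGA1 the value of −0.77 (adjusted p = 6.4e-05) set no call in MDA-MB-231 beside a fall in MDA-MB-453.

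In the fulvestrant background 7 of the 9 were called, all lower in MDA-MB-453 (background 18.1%). HMGB2 differed by −3.49 (adjusted p = 4.2e-16), TMPO by −0.89, LBR by −0.87, LMNB1 by −0.77, HMGA1 by −0.60, and LMNA and HMGB1 by −0.58 each. LMNB2 (−0.28, 95% interval −0.66 to 0.11, adjusted p = 0.362) and HMGB3 (−0.39, 95% interval −0.77 to 0.00, adjusted p = 0.169) were not called. Neither count changed when any of the 3 libraries that stood apart was left out. The lines also differed in the proliferation transcripts: MKI67 was at 505 CPM with DMSO and 185 CPM with abemaciclib in MDA-MB-231 and at 283 and 1.77 CPM in MDA-MB-453 (log2 fold changes −1.45 and −7.28). CCNA2, which encodes cyclin A2, was at 108 and 36.2 CPM and at 42.0 and 0.523 CPM (−1.58 and −6.30). The MDA-MB-453 abemaciclib group held only 18 MKI67 and 5 CCNA2 counts in all, so depth limits the precision of these folds. The part of the proliferation differences in the lamina and HMG values was not tested.

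Before any drug, 9 of the 10 transcripts differed in level between the lines, where 69.8% of all genes did. LBR (0.77), HMGB1 (0.80), HMGB3 (0.64) and LMNB1 (0.37) were higher in MDA-MB-453, as log2 differences of the DMSO groups. LMNB2 (−1.56), HMGA1 (−3.12), HMGB2 (−0.43) and TMPO (−0.40) were lower there. HMGA1 was 8.66-fold lower in MDA-MB-453, at a mean of 197 ± 23.4 CPM (SD, n = 3) against 1702 ± 70.5 CPM. HMGA2, at 82.8 ± 7.12 CPM in MDA-MB-231 and 0 counts in MDA-MB-453, was at least 288-fold lower against the level that 3 counts over the group would give. LMNA did not differ by the test (0.06, 95% interval −0.12 to 0.24, adjusted p = 0.562), at 331 ± 23.0 and 345 ± 10.3 CPM. The call of LMNB1 rested on 1 library, with an adjusted p of 0.0535 without replicate 2 of MDA-MB-453 with DMSO.

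Ordered by mean level over the 8 groups, LMNB1 was highest in MDA-MB-453 with DMSO (139 ± 4.93 CPM) and with fulvestrant (137 ± 5.12), then in MDA-MB-231 with fulvestrant (108 ± 10.8) and DMSO (107 ± 5.48). Within each of these pairs the difference was smaller than the SD. Next came MDA-MB-231 with abemaciclib (47.8 ± 6.44) and with the combination (31.9 ± 4.07), then MDA-MB-453 with abemaciclib (30.1 ± 3.19) and with the combination (23.5 ± 2.73), and the 31.9 and 30.1 CPM of neighbours in that order again differed by less than their SD. HMGB2 was highest in MDA-MB-231 with DMSO (258 ± 31.8) and fulvestrant (247 ± 22.2), then in MDA-MB-453 with fulvestrant (194 ± 4.43) and DMSO (191 ± 17.2), and again the members of each pair lay within their SD of each other. It was lower in MDA-MB-231 with abemaciclib (104 ± 20.1) and the combination (88.9 ± 9.83), and lowest in MDA-MB-453 with the combination (6.31 ± 2.32) and abemaciclib (3.76 ± 1.85). LMNA, in contrast, was highest in MDA-MB-231 with abemaciclib (515 ± 41.3) and the combination (495 ± 41.8), and its other 6 group means lay between 306 and 345 CPM.

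**Figure D4:**
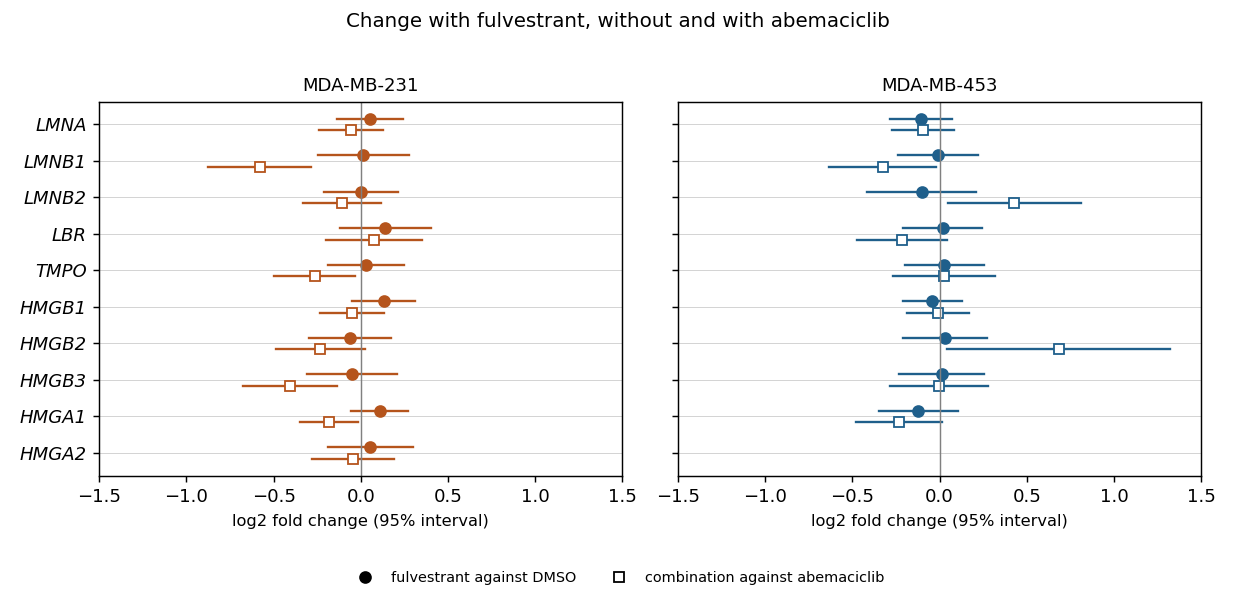
Log2 fold change of each transcript with its 95% interval (horizontal axis) for fulvestrant against DMSO (filled circles) and for the combination against abemaciclib (open squares) in MDA-MB-231 (left) and MDA-MB-453 (right). For fulvestrant against DMSO every interval spans 0, and LMNB1 in MDA-MB-231, at −0.58 for the combination, lies farthest below it.

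With fulvestrant alone no difference from DMSO was called for these transcripts. That held for the 10 in MDA-MB-231, where no gene in the table was (background 0%, with 799 of 11314 genes at an unadjusted p below 0.05 and 0 of the 10), and for the 9 in MDA-MB-453 (background 1.41%, with 0 of the 9 and 1504 of 11080 genes at an unadjusted p below 0.05). The log2 fold changes lay between −0.06 and 0.14 in MDA-MB-231 and between −0.12 and 0.03 in MDA-MB-453. Their 95% intervals together spanned −0.31 to 0.40 and −0.42 to 0.27, so that larger differences lie outside the intervals at this depth. LMNB1 was at 106, 113 and 102 CPM with DMSO and 108, 97.7 and 119 CPM with fulvestrant in MDA-MB-231, overlapping groups. The groups of HMGB1 in MDA-MB-231 did not overlap, at 381, 391 and 418 CPM with DMSO and 432, 450.0 and 422 CPM with fulvestrant. Its log2 fold change of 0.13 was not called (95% interval −0.05 to 0.31, adjusted p = 0.805). The share of all genes without overlap was not counted for fulvestrant against DMSO, so this lack of overlap only describes the libraries.

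Nor was any of them called for the combination against abemaciclib, in MDA-MB-231 (background 0.0265%, with 4 of 10 at an unadjusted p below 0.05 and 1148 of 11314 over all genes) or in MDA-MB-453 (background 2.46%, with 3 of 9 and 1666 of 11080). LMNB1 came nearest, with all 3 combination libraries of MDA-MB-231 below all 3 abemaciclib libraries and a log2 fold change of −0.58 (95% interval −0.88 to −0.28, unadjusted p = 2.9e-04, adjusted p = 0.116). The groups of LMNB2 (−0.11), TMPO (−0.26), HMGB3 (−0.41) and HMGA1 (−0.18) did not overlap in that line either, with lower values in the combination and adjusted p-values from 0.251 for HMGB3 to 0.811 for LMNB2. The share of all genes whose groups did not overlap was not counted in either line. For this comparison a lack of overlap is therefore only a description of the libraries and not a result about these genes. LMNB1 was called with DESeq2, and with edgeR when replicate 1 of fulvestrant was left out of the fit (lowest adjusted p 0.0277, range over 19 alternatives up to 0.512). In MDA-MB-453 LMNB1 was at 26.4, 32.1 and 31.7 CPM with abemaciclib and 21.0, 23.1 and 26.4 CPM with the combination, groups that did not overlap but met at 26.4 CPM after rounding, with a log2 fold change of −0.33 (95% interval −0.63 to −0.02, adjusted p = 0.292). The groups of HMGA1 did not overlap there either (−0.23, adjusted p = 0.372). HMGB2 was higher in value with the combination than with abemaciclib in MDA-MB-453 (0.68, 95% interval 0.04 to 1.32, adjusted p = 0.274), with overlapping groups that held 62 and 39 counts in all, and its value moved between 0.44 and 1.19 over the alternatives, the call appearing without replicate 1 of abemaciclib (adjusted p = 0.0498). The interaction of both drugs was not called for any of the genes in MDA-MB-231 (background 0.124%, with 2 of 10 at an unadjusted p below 0.05 and 1298 of 11314 over all genes) or in MDA-MB-453 (background 3.80%, with 1 of 9 and 1748 of 11080). Its values lay between −0.60 for LMNB1 and −0.07 for LBR in MDA-MB-231, and between −0.32 for LMNB1 and 0.65 for HMGB2 in MDA-MB-453. HMGA1 in MDA-MB-231 (−0.29, adjusted p = 0.304) was called for it without replicate 1 of fulvestrant (adjusted p = 0.0323).

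Among 35 other genes of the nuclear envelope, the nuclear pore and heterochromatin, the members moved in both directions. With abemaciclib 4 rose, 10 fell and 20 were not called of 34 tested in MDA-MB-231, and 3 rose, 12 fell and 18 were not called of 33 in MDA-MB-453. The share called was 41.2% and 45.5% against 33.7% and 36.0% of all genes, and the median log2 fold change was −0.316 and −0.258. In the fulvestrant background 3 rose and 12 fell of 34 tested in MDA-MB-231, and 6 rose and 12 fell of 33 in MDA-MB-453. The share called there was 44.1% and 54.5%, against 36.1% and 36.6% of all genes. TMEM201, an inner nuclear membrane protein gene, fell in both lines (−1.14 and −1.62, adjusted p = 1.3e-05 and 9.4e-06). In MDA-MB-231 LPIN1, which encodes the phosphatidate phosphatase lipin 1, rose by 0.99 and NUP153, a nuclear basket gene that binds lamins, fell by 0.81 on the log2 scale. In MDA-MB-453 KPNA2, an importin alpha gene, fell by 2.07 and SYNE2, which encodes the actin-binding nesprin-2, fell by 1.85. Genes were named per line by size of change, so a gene named for 1 line may also differ in the other. From DMSO to abemaciclib, mean CPM went from 219 to 137 for KPNA2 and 39.5 to 34.4 for SYNE2 in MDA-MB-231. In MDA-MB-453 it went from 18.2 to 30.1 for LPIN1 and 21.9 to 19.3 for NUP153.

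Of 31 other genes with an HMG box or HMGN domain or a related function, 6 rose and 6 fell of 27 tested in MDA-MB-231 with abemaciclib, and 6 rose and 8 fell of 25 in MDA-MB-453. The share called was 44.4% and 56.0% and the median 0.075 and 0.088 against 33.7% and 36.0% called and medians of −0.001 and −0.002 over all genes. In the fulvestrant background 5 rose and 6 fell of 27 tested in MDA-MB-231, and 3 rose and 8 fell of 25 in MDA-MB-453. There 40.7% and 44% were called, against 36.1% and 36.6% of all genes. SOX4, a developmental transcription factor gene, rose in both lines by 1.44 and 1.41 (adjusted p = 2.8e-12 and 3.8e-18), and TOX2 rose by 1.19 in MDA-MB-231. NSD2, a histone methyltransferase gene with an HMG box, fell by 1.08 in MDA-MB-231. HMGN2, a nucleosome-binding protein gene, fell by 1.94 in MDA-MB-453, and SSRP1, a subunit of the histone chaperone FACT, fell by 1.03. These genes too were named per line by size of change. From DMSO to abemaciclib, mean CPM in MDA-MB-231 went from 799 to 455 for SSRP1 and 22.8 to 15.3 for HMGN2. In MDA-MB-453 it went from 69.8 to 38.0 for NSD2, and TOX2 was at 0 in both groups.

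Of the other transcripts used as marks of senescence, GLB1, which encodes the lysosomal beta-galactosidase, rose in both lines with abemaciclib (0.57, adjusted p = 0.0140, and 0.67, adjusted p = 3.3e-05). CDKN1A, which encodes the CDK inhibitor p21, was not called in MDA-MB-231 (−0.48, adjusted p = 0.107) or MDA-MB-453 (−0.24, adjusted p = 0.576).

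The transcripts with the most similar profile to LMNB1 over the 12 libraries of a line were CCNB2 (mean Pearson r over both lines 0.987), SPC24 (0.985) and FBL (0.983), among 6666 genes that averaged at least 10 CPM in each line. For HMGB2 they were PLK1 (0.985), MCM2 (0.985) and ARHGAP11A (0.982). For LMNA the likeness was lower, with MYL6 (0.910), ETFB (0.907) and RAB3D (0.869). These values are over the same libraries for every gene, and the libraries of a line include both groups with and groups without abemaciclib, so the points are not independent of treatment.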

How the data were processed

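QuantSeq 3′ libraries (FWD kit) were made from total RNA. Per the methods and labels, the authors trimmed single-end reads (BBDuk), mapped these to hg38 (STAR), counted reads per gene (featureCounts with a GENCODE annotation) and deposited the raw counts. Treatment of strand, multi-mapping reads and duplicates was not given in the sources used here, and reads shared with copies may be lost or split. The table had 59610 rows, 1 of which named no gene and held 0 counts. Genes were filtered with filterByExpr and tested with edgeR 4.0.16 (R 4.3.3, TMM, quasi-likelihood, 2-sided, prior count 0.125), over the 12 libraries of a line, or over all 24 between lines, and called at an adjusted p below 0.05 over all genes tested. SEs are Wald SEs and intervals 95%. CPM values use TMM factors over all 24 libraries. DESeq2 1.42.0 was an alternative, as were other size factors, filters and sample sets. With totals of 2873558 to 4158762, 1 count was worth 0.232 to 0.350 CPM. The biological coefficient of variation was 13.4% (MDA-MB-231) and 12.6% (MDA-MB-453). The fitting script was tested on simulated counts.

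All 10 genes are named. Some context and marker genes are not reported here. From each wider list the text names, per line, the 3 genes with the largest change among those called alike in both abemaciclib comparisons and averaging at least 10 CPM. The genes and lists were chosen with earlier results of these data known. Since every replicate of a group came from 1 experiment, p-values measure the spread between these samples.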

Additional observations from a re-analysis of the deposited data

Results flagged for a closer look

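The log2 fold change with abemaciclib differed between the lines by the test of the difference itself (MDA-MB-453 minus MDA-MB-231, edgeR, adjusted over all genes tested), in a comparison against DMSO and in the fulvestrant background. Against DMSO the difference was −0.70 for LMNA, −1.04 for LMNB1, −0.91 for LMNB2, −0.69 for LBR, −1.18 for TMPO, −0.79 for HMGB1, −4.31 for HMGB2, −0.72 for HMGB3 and −0.77 for HMGA1. In the fulvestrant background it was −0.58 for LMNA, −0.77 for LMNB1, −0.87 for LBR, −0.89 for TMPO, −0.58 for HMGB1, −3.49 for HMGB2 and −0.60 for HMGA1. Line and growth medium cannot be told apart in these values.

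Among the other genes named, the difference was −1.64 and −1.92 for SYNE2, −1.38 and −0.93 for KPNA2, −5.83 and −6.68 for MKI67, and −4.72 and −4.27 for CCNA2, each against DMSO and in the fulvestrant background. It was called only against DMSO for HMGN2 (−1.36), and only in the fulvestrant background for SOX4 (−0.76) and CDKN1A (1.52). Whether these differences themselves differed between the backgrounds was not tested. In MDA-MB-453, MKI67 held 18 counts with abemaciclib and 17 with the combination, and CCNA2 held 5 and 8. Depth therefore limits the precision of the values for these 2 genes.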

How the results depend on the processing

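Each value was refitted under 18 to 30 alternatives (other settings, or 1 library left out), and no called value changed sign. For abemaciclib against DMSO every call among the 10 genes held in both lines under all alternatives run. For the combination against abemaciclib in MDA-MB-231 the number called was 1 with DESeq2 (LMNB1), where edgeR called 0, and it ranged from 0 to 1 when each library was left out (LMNB1, without fulvestrant replicate 1). The interaction in MDA-MB-231 ranged from 0 to 1 (HMGA1, without the same library), and the combination against abemaciclib in MDA-MB-453 from 0 to 1 (HMGB2, without abemaciclib replicate 1). LMNA, combination against DMSO in MDA-MB-453, was called (adjusted p = 0.0406) when only the groups compared entered the fit. The cause of these moves was not tested.

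Replicate numbers are shared between groups, but the deviations of same-numbered samples did not go together (MDA-MB-231, r from −0.103 to 0.040 over 18 pairs of samples, and MDA-MB-453, r from −0.077 to 0.042 over 18). With the replicate number as a block, 9 of 10 genes in MDA-MB-231 and 8 of 9 in MDA-MB-453 were called for abemaciclib against DMSO, and no call of the 10 genes differed from the fit without it in any comparison. Over all genes the interaction in MDA-MB-231 went from 14 calls to 6 with the block. With 3 libraries per group and 39 to 62 HMGB2 counts per treated MDA-MB-453 group, depth limits the precision of that fold.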
